A study of Rattus norvegicus with 6 samples.

Results

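The miR-143/miR-145 and miR-199a/miR-214 clusters were examined through 8 rows of the deposited miRNA table, which lists 775 miRNAs in rat brain. The rows are both arms of 4 hairpins, rno-miR-143-3p, rno-miR-143-5p, rno-miR-145-5p, rno-miR-145-3p, rno-miR-199a-5p, rno-miR-199a-3p, rno-miR-214-3p and rno-miR-214-5p, and they were taken by name. Small RNA libraries of 2 groups were compared, with 3 libraries in each. All rats carried a permanent ligation of both common carotid arteries (the 2-vessel occlusion or 2VO model of vascular dementia) and were male Sprague–Dawley rats of 7 weeks at purchase. The 2VO group received 0.5% CMC-Na vehicle by gavage at 5 mL/kg, and the tilianin-treated group received the flavonoid glycoside tilianin at 40 mg/kg daily in the same vehicle, each over 4 weeks. No sham library was analysed here, so a change set off by the occlusion itself cannot be read from these data. The sources used here do not say whether 1 library is 1 rat, and p-values then measure the spread between libraries, which may be technical. The tissue is labelled brain, and a figure legend of the study calls it cortical. The neuron-enriched miR-124-3p was abundant in every library, with 362350 to 960700 counts.

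MicroRNAs are cut from a hairpin as a 5p and a 3p arm, and the arm that is loaded into Argonaute pairs with target mRNAs mainly through its seed, bases 2 to 8. miR-143 and miR-145 are made from 1 primary transcript and are known for their abundance in smooth muscle cells and pericytes, the mural cells of blood vessels, where they support the contractile state. miR-199a and miR-214 are made from a transcript antisense to an intron of Dnm3, a dynamin gene, and are known from fibroblasts and other mesenchymal cells. Since partners of a cluster share a transcript, the question was whether miR-143 moved with miR-145 and miR-199a with miR-214 across the 2VO and tilianin-treated libraries.

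The mature sequences are shown because each row of the table counts reads of 1 of them. They were read from RefSeq on the GRCr8 build, where all 8 were found by name, and the capitals mark the seed. The authors' build is not given in the sources used here, so positions locate the printed sequences and not the reads.
rno-miR-143-3p: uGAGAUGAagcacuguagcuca
rno-miR-143-5p: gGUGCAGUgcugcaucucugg
rno-miR-145-5p: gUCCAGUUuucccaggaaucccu
rno-miR-145-3p: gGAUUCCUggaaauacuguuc
rno-miR-199a-5p: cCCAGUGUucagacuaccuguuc
rno-miR-199a-3p: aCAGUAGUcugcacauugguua
rno-miR-214-3p: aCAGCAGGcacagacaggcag
rno-miR-214-5p: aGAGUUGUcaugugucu

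The 8 seeds all differed, and none of them was found in another of the 724 mature sequences of the RefSeq table. Seeds bear on target pairing, and whether whole reads could match several rows was not tested. No other row of the deposited table carried the number of a member in its name, and no other row had the same counts as a member with at least 10 counts. Mir145 and Mir143 lie on the minus strand of chromosome 18 with 1278 bases between the hairpins, inside the long non-coding RNA gene Carmn. Mir199a2 and Mir214 lie on the plus strand of chromosome 13 with 5310 bases between them, inside the span of Dnm3. The hairpins of miR-145 and miR-214 are printed with both arms in capitals, since both arms of miR-145 had counts while those of miR-214 came from the 3p arm.
Mir145 (chr18:57369983-57370070, minus strand): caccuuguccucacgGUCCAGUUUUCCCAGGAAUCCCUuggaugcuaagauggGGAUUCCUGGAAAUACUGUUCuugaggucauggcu
Mir214 (chr13:77121645-77121752, plus strand): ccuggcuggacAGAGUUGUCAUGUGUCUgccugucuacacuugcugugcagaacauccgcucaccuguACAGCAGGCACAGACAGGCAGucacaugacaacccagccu

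All 8 rows together held 261 of 53742081 counts. The libraries had total counts of 7175872 to 13198776, and miRNAs with fewer than 10 counts over the 6 libraries were not tested. This left 454 miRNAs, and 4 of the 8 members passed (miR-143-3p, miR-145-5p, miR-145-3p and miR-214-3p). The 4 others were miR-143-5p, miR-199a-5p and miR-214-5p, which were listed at 0 in all libraries, and miR-199a-3p, with 1 count in tilianin-treated replicate 1 and 0 elsewhere. Over the whole table, 41.4% of rows were under 10 counts and 224 rows were at 0 throughout. A count of 0 allows up to 3 counts, or 0.232 to 0.462 CPM (library-scaled counts, using TMM factors) depending on the library. This limit and the intervals below cover counting error only. By mean CPM, the tested members ranked 338 (miR-214-3p), 356 (miR-143-3p), 419 (miR-145-3p) and 436 (miR-145-5p) among the 551 miRNAs with at least 1 count. miR-214-3p gave 51.3% of all member counts and miR-143-3p 34.1%. miR-21-5p, which is abundant in many tissues and was looked at after the values were seen, was also low, at 0.109 to 1.23 CPM. Why these rows held few counts was not tested.

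**Figure D1:**
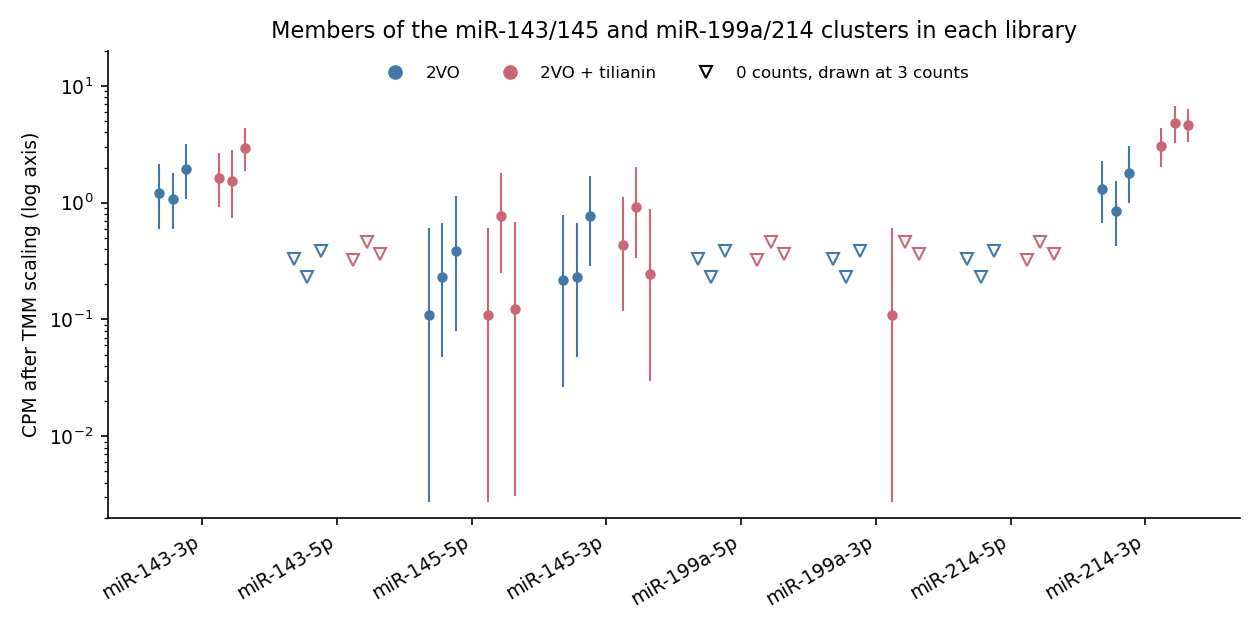
CPM after TMM scaling on a log axis for each of the 8 members, with 1 point per library and its exact 95% Poisson interval; open triangles stand for 0 counts and are drawn at the level of 3 counts. miR-214-3p is the member whose treated libraries (3.04 to 4.77 CPM) all lie above its 2VO libraries (0.849 to 1.81 CPM), and 4 members have 0 counts in at least 5 of the 6 libraries.

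miR-214-3p, the miRNA of the miR-199a/miR-214 cluster that could be measured, was higher in every tilianin-treated library than in any 2VO library. The 2VO libraries, in the order of replicates 1, 2 and 3, held 12, 11 and 14 of its counts, or 1.31, 0.849 and 1.81 CPM. The tilianin-treated libraries in the same order held 28, 31 and 38, or 3.04, 4.77 and 4.64 CPM. The groups did not overlap, and the lowest treated library lay above the highest 2VO library by more than the SD of either group. Mean CPM was 1.32 ± 0.481 without and 4.15 ± 0.964 with tilianin (SD, n = 3 each). This is a log2 fold change of 1.66 (standard error 0.396), or a fold of 3.16. The counts summed over each group gave a rate ratio of 3.28 with an exact 95% interval of 2.22 to 4.92. By edgeR's quasi-likelihood test the unadjusted p was 0.00391, the third smallest of the 454, and the Benjamini-Hochberg adjusted p was 0.591. A two-sided exact permutation test gave p = 0.1, the smallest that 3 libraries against 3 allow. In bulk tissue, a different number of cells that make a miRNA and a different amount of it per cell cannot be told apart. The study lists miR-214-3p among miRNAs it selected on these same libraries, so its change here is not independent evidence.

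Under the criterion of the study, an unadjusted p-value below 0.05 with an absolute log2 fold change above 1, miR-214-3p was the single member called upregulated, 1 of the 4 tested, and 0 were called downregulated. Of all tested miRNAs, 4.63% were called upregulated. The treated libraries all lay above the 2VO libraries for the same 1 of 4 members and for 5.51% of all tested miRNAs. The tested members had a median log2 fold change of 0.48 beside -0.03 over all tested miRNAs. Adjusted over all miRNAs, 0 passed 0.05 with edgeR's quasi-likelihood test, whereas 33 had an unadjusted p-value below 0.05. With all other settings tried, 10 changes of normalization, filter, test or model and 6 fits that each left out a library, the log2 fold change of miR-214-3p lay between 1.45 and 1.94 and its unadjusted p-value between 0.000613 and 0.0159. It was called upregulated in each of them. Its adjusted p ranged from 0.0557 with edgeR's exact test to 0.965 with edgeR's quasi-likelihood test without 2VO replicate 2.

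**Figure D2:**
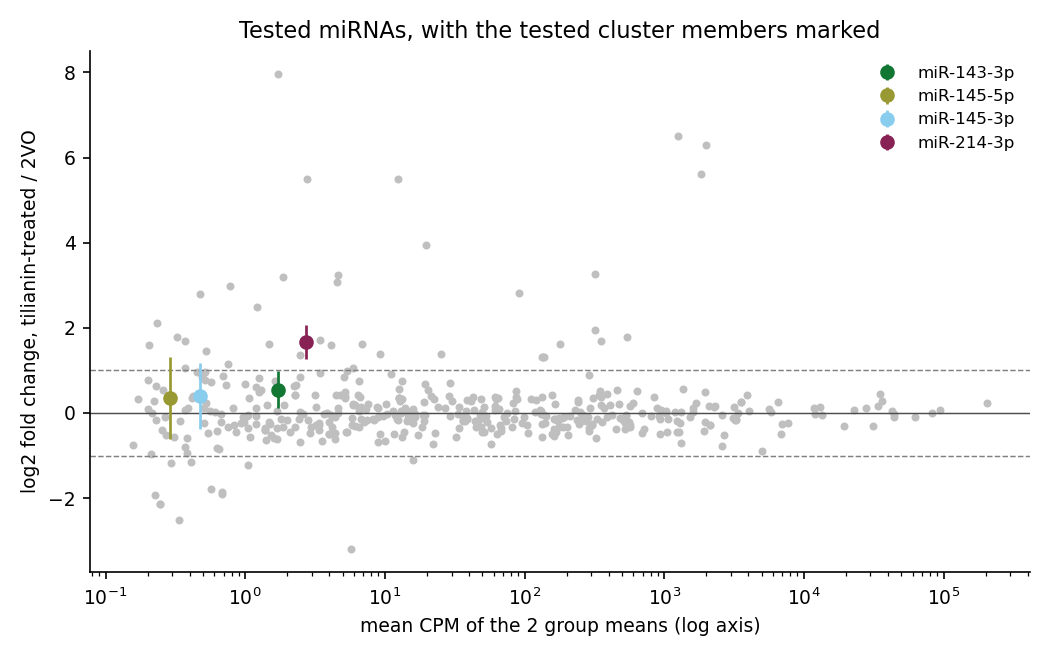
Log2 fold change of the tilianin-treated against the 2VO group plotted by mean CPM on a log axis, with the 454 tested miRNAs in grey, the 4 tested members coloured with their standard errors, and dashed lines at 1 and -1. miR-214-3p lies above the upper line at 1.66, and miR-143-3p, miR-145-5p and miR-145-3p lie between the lines at 0.55, 0.36 and 0.40.

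Its partner miR-199a could not be followed. miR-199a-3p had 1 count over all 6 libraries and miR-199a-5p had 0, so neither has a fold change. Within a library, miR-214-3p had at least 3.67 to 4.67 times the counts of miR-199a-3p in the 2VO group, with the libraries at 0 set to 3 counts. It had at least 10.3 and 12.7 times in tilianin-treated replicates 2 and 3. In tilianin-treated replicate 1 the counts were 28 and 1, a ratio of 28.0 with an exact 95% interval of 4.63 to 1140. Counts of different miRNAs depend on ligation and amplification as well as on abundance, so these ratios compare rows of the table and not molecules. Whether miR-199a changed along with miR-214-3p could therefore not be read from these counts. The opposite arm, miR-214-5p, was at 0 beside 134 counts of miR-214-3p, which allows it up to 2.24% of the counts of the hairpin. Its printed sequence has 17 bases against 21 for miR-214-3p. miR-3120, whose gene overlaps that of miR-214 in RefSeq, was also at 0 in all libraries; it was looked at because of this overlap.

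miR-143-3p, the leading product of the miR-143/miR-145 cluster, did not pass the test. The 2VO libraries, again by replicate number, held 11, 14 and 15 of its counts, or 1.20, 1.08 and 1.94 CPM. The tilianin-treated libraries held 15, 10 and 24, or 1.63, 1.54 and 2.93 CPM. The groups overlapped, since 2VO replicate 3 lay above treated replicates 1 and 2. Mean CPM was 1.41 ± 0.466 without and 2.03 ± 0.778 with tilianin (SD, n = 3 each). On the log2 scale the change was 0.55, with a standard error of 0.437. By edgeR's quasi-likelihood test the unadjusted p was 0.249 and the adjusted p 0.796. The summed counts gave a rate ratio of 1.53 with an exact 95% interval of 0.988 to 2.39. Without tilianin-treated replicate 3, its highest library, the log2 fold change was 0.19, and without 2VO replicate 3 it was 0.83. The opposite arm, miR-143-5p, was at 0 beside 89 counts of miR-143-3p, which allows it up to 3.37% of the counts of the hairpin.

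Both arms of miR-145 were at the edge of detection. miR-145-5p had 1, 3 and 3 counts in 2VO replicates 1, 2 and 3 and 1, 5 and 1 counts in tilianin-treated replicates 1, 2 and 3. Each group held 7 counts, a rate ratio of 1.25 with an exact 95% interval of 0.374 to 4.18. miR-145-3p had 2, 3 and 6 counts in the 2VO replicates and 4, 6 and 2 counts in the treated replicates, a rate ratio of 1.36 with an exact 95% interval of 0.551 to 3.41. For both arms the groups overlapped, and both intervals include a fall as well as a rise. Their log2 fold changes were 0.36 (standard error 0.968) and 0.40 (standard error 0.778). The unadjusted p-values of the 5p and 3p arms were 0.723 and 0.619 by edgeR's quasi-likelihood test, and the adjusted values were 0.922 and 0.896. The log2 fold change of miR-145-3p was -0.12 without tilianin-treated replicate 2. The 3p arm gave 23 of the 37 counts of the hairpin, 62.2% with an exact 95% interval of 44.8 to 77.5%. miR-145-5p is usually taken as the guide of this hairpin, and in these counts it was not shown to exceed the other arm. The share of the 3p arm was 61.1 ± 9.62% in the 2VO libraries and 67.1 ± 12.7% in the treated libraries (SD, n = 3 each), with p = 0.6 in a two-sided exact permutation test. The difference of 5.96 percentage points was -0.51 without tilianin-treated replicate 1.

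**Figure D3:**
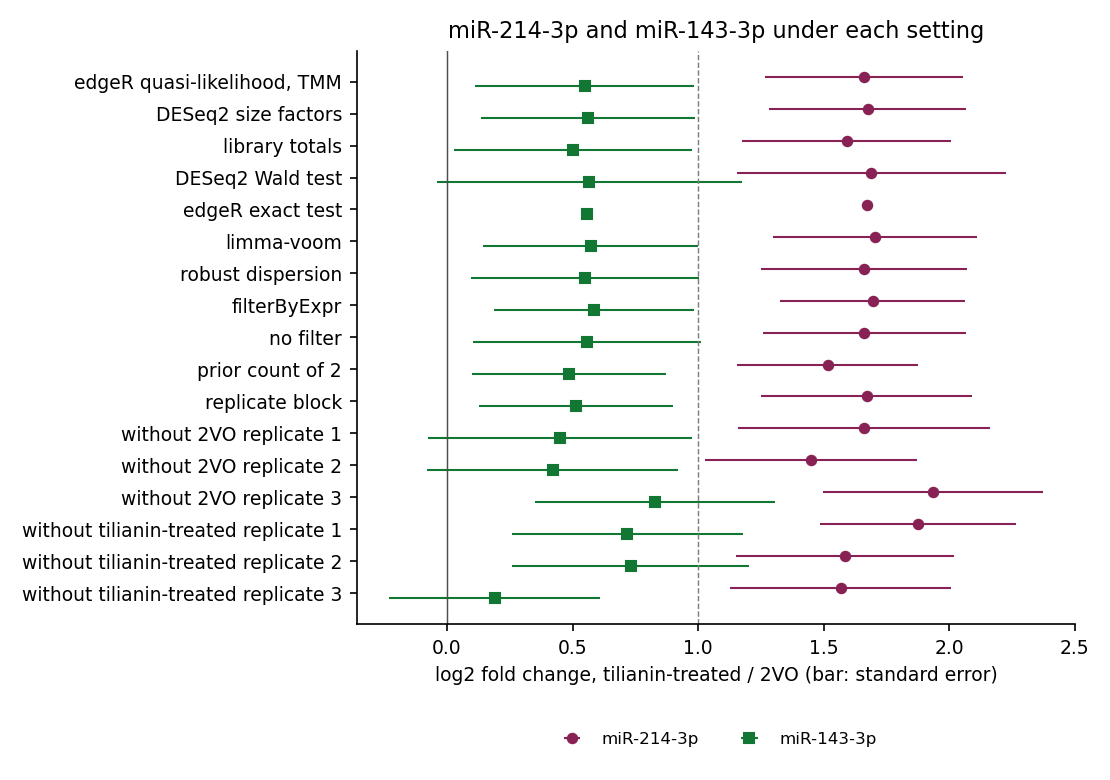
Log2 fold change of miR-214-3p (circles) and miR-143-3p (squares) under each setting, with standard errors as bars (edgeR's exact test gives none) and a dashed line at 1. miR-214-3p stays between 1.45 and 1.94 and miR-143-3p between 0.19 and 0.83.

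The spread among replicates is given as a description, since each value rests on 3 libraries. The index of dispersion, which averages 1 when counting is the single source of spread, was 1.83 in the 2VO group and 1.92 in the treated group for miR-214-3p. It was 1.43 and 2.35 for miR-143-3p, 0.698 and 3.46 for miR-145-5p, and 2.36 and 1.74 for miR-145-3p. The value of 3.46 came from 5 counts of miR-145-5p in tilianin-treated replicate 2 beside 1 in each of the other treated libraries. This library also stood apart over all tested miRNAs, with Spearman correlations to the others of 0.936 to 0.957. Leaving it out gave a log2 fold change of 1.58 for miR-214-3p and 0.73 for miR-143-3p, and put miR-145-5p under the filter.

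Within each library, the balance between the partners miR-143-3p and miR-145-5p needs no scaling. miR-143-3p made up 91.7, 82.4 and 83.3% of the summed counts of both in 2VO replicates 1, 2 and 3. In tilianin-treated replicates 1, 2 and 3 it made up 93.8, 66.7 and 96.0%. The treated libraries thus held both the lowest and the highest shares. Over the summed counts of a group the share was 85.1% (exact 95% interval 71.7 to 93.8%) in the 2VO group and 87.5% (75.9 to 94.8%) in the treated group. The log2 ratio was 2.38 ± 0.487 and 2.78 ± 1.63 (SD, n = 3 each), a difference of 0.40 with p = 0.8 in a two-sided exact permutation test, and the difference was -0.23 without tilianin-treated replicate 3.

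The clusters were also set against each other by the ratio of miR-214-3p to miR-143-3p, which was chosen after the values had been seen. This ratio uses the same miR-214-3p counts as the result above, so it is a description and not separate evidence. In 2VO replicates 1, 2 and 3, miR-214-3p made up 52.2, 44.0 and 48.3% of the summed counts of these miRNAs. In the treated replicates 1, 2 and 3 it made up 65.1, 75.6 and 61.3%. Every treated library lay above every 2VO library. The log2 ratio was -0.10 ± 0.227 in the 2VO group and 1.04 ± 0.487 in the treated group (SD, n = 3 each). The difference was 1.14, with p = 0.1 in a two-sided exact permutation test, the smallest possible here, and 0.87 to 1.34 when any single library was left out. The group shares were 48.1% (exact 95% interval 36.5 to 59.7%) and 66.4% (58.2 to 74.0%), whose intervals overlap.

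**Figure D4:**
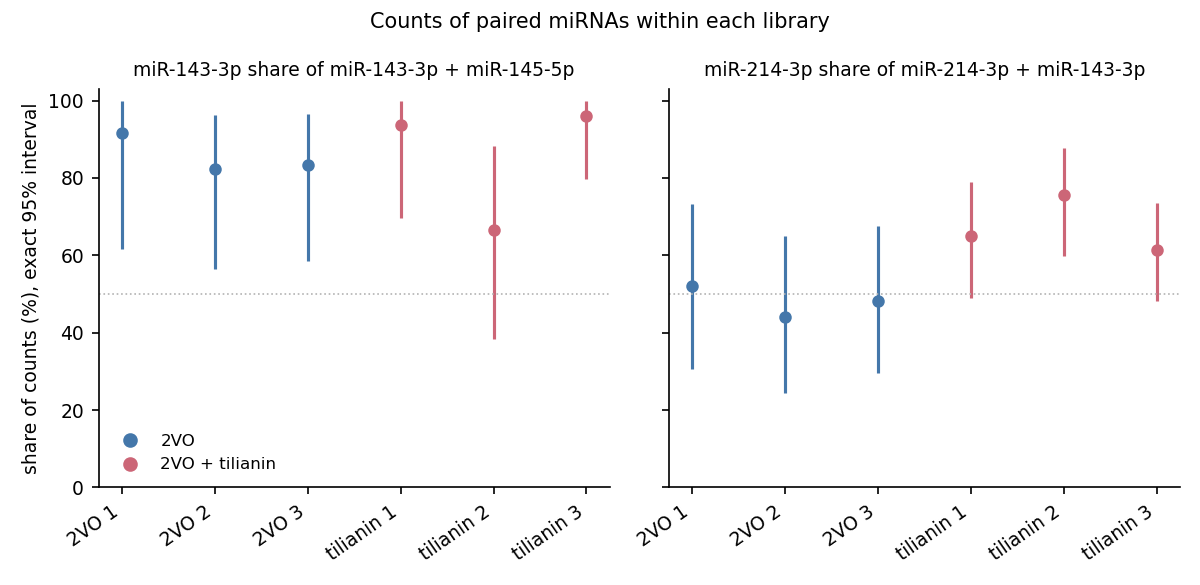
Share of miR-143-3p in the counts of miR-143-3p and miR-145-5p (left) and of miR-214-3p in the counts of miR-214-3p and miR-143-3p (right) in each library, in percent with exact 95% binomial intervals and a dotted line at 50%. On the left the treated libraries spread from 66.7 to 96.0% around the 2VO libraries, and on the right they lie at 61.3 to 75.6%, above the 44.0 to 52.2% of the 2VO libraries.

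Correlations over the 6 libraries were computed on log2(CPM + 1). Of 11 pairs considered, 7 included a member under 10 counts and were left out, among them miR-199a with miR-214-3p. The partners miR-143-3p and miR-145-5p had a Pearson r of -0.0934 (permutation p = 0.833, adjusted 0.833 over the 4 pairs) and a Spearman rho of -0.0286 (permutation p = 1). Without the 2 libraries farthest from the median of miR-143-3p, r was 0.331, and it was 0.35 without tilianin-treated replicate 3 alone. The arms miR-145-5p and miR-145-3p had r = 0.866 (permutation p = 0.0250, adjusted 0.1) and rho = 0.600 (permutation p = 0.242). That relation rested on tilianin-treated replicate 2 and 2VO replicate 3, without which r was -0.370. Across the clusters, miR-143-3p and miR-214-3p had r = 0.693 (permutation p = 0.124, adjusted 0.248) and rho = 0.600 (permutation p = 0.242), and r = 0.226 without the 2 farthest libraries. miR-145-5p and miR-214-3p had r = 0.328 (permutation p = 0.564, adjusted 0.752) and rho = 0.257 (permutation p = 0.658), and r was -0.626 without the 2 farthest and -0.38 without tilianin-treated replicate 2. No pair passed the adjusted threshold of 0.05. At 1 to 5 counts a library for miR-145-5p, whether miR-143 and miR-145 moved together could not be resolved.

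The miRNAs whose pattern was most like that of a member were found by Pearson's r over the 6 libraries among 379 miRNAs with at least 10 counts on average, as a description with no test. For miR-214-3p these were miR-450b-5p (r = 0.986), miR-450a-5p (0.980), miR-3553 (0.947), miR-152-3p (0.933) and miR-542-3p (0.919). The CPM of miR-450b-5p lay at 271 to 319 without tilianin and at 354 to 424 with it, so that its treated libraries were all higher, with a log2 fold change of 0.41. For miR-143-3p they were miR-203a-3p (0.917), a miRNA predicted by the authors (0.916), miR-23a-3p (0.915), miR-129-5p (0.867) and miR-27a-3p (0.854), whose highest library was tilianin-treated replicate 3 in each case. The predicted miRNA lay at 1810 to 2750 CPM and miR-23a-3p at 1840 to 2780 CPM, with nearly the same value in each library, so they are not separate patterns. For miR-145-5p they were miR-135a-5p (0.929), miR-30a-5p (0.926), miR-216a-5p (0.913), miR-34a-3p (0.910) and miR-380-5p (0.907), all highest in tilianin-treated replicate 2. miR-145-5p was not among the miRNAs that could be named for miR-143-3p, as it averaged fewer than 10 counts.

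Of 9 other miRNAs known from mural and mesenchymal cells, 2 were called upregulated and 0 downregulated, beside 4.63% called upregulated among all tested miRNAs. Their median log2 fold change was 0.38 against -0.03 over all tested. Those called were miR-10a-5p and miR-10b-5p, which are also on the Hox cluster list and reached 11300 and 10400 CPM in tilianin-treated replicate 2 against at most 297 CPM elsewhere. The study lists miR-10a-5p, miR-10b-5p and miR-152-3p among miRNAs it selected on these same libraries. Their changes here, and the share of the list that was called, are therefore not independent evidence. miR-152-3p was just under the fold needed for a call, at 0.90 on the log2 scale with a standard error of 0.351, and its unadjusted p by edgeR's quasi-likelihood test was 0.0368. It lay at 134 to 275 CPM without tilianin and at 253, 499 and 370 CPM in treated replicates 1, 2 and 3, so that the groups overlapped in treated replicate 1. miR-195-5p and miR-497-5p, made from 1 cluster and known from smooth muscle among other cells, had log2 fold changes of 0.56 (standard error 0.353) and 0.33 (standard error 0.286) and were not called. miR-140-3p and miR-140-5p, known from cartilage and fibroblasts, had 0.35 (standard error 0.205) and 0.38 (standard error 0.243) and were not called either. The remaining members of the list were negative and not called. miR-22-3p had -0.24 (standard error 0.336), with its lowest library, tilianin-treated replicate 2, at 656 CPM. miR-28-5p had -0.09 (standard error 0.978) at 0 to 4 counts a library. The endothelial miR-126a-3p, a marker of vessels, ranged from 4540 to 7200 CPM without tilianin and from 5560 to 6050 CPM with it, a log2 fold change of 0.10 (standard error 0.229).

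Markers of other tissues were higher in some treated libraries along with miR-214-3p. Beside the calls given below, 4.63% of all tested miRNAs were called upregulated. Of the miRNAs called in these lists, miR-10a-5p, miR-10b-5p and miR-223-3p are among those the study selected on these same libraries. The 8 blood and leukocyte miRNAs summed to 929 to 1360 CPM without tilianin and 1330 to 2280 CPM with it, with 2 of 7 tested called upregulated and miR-451-5p at 0 to 4 counts. The 5 choroid plexus miRNAs summed to 120 to 152 CPM and 123 to 1080 CPM, with 3 of 4 tested called upregulated and miR-211-3p at 0. The remaining tested member, miR-449a-5p, went the other way, at -0.59 on the log2 scale, and was not called. The 6 Hox cluster miRNAs summed to 89.8 to 149 CPM and 321 to 21700 CPM, with 2 of 3 tested called, and miR-196b-5p and miR-196c-5p at 0. The 7 striated muscle miRNAs summed to 282 to 316 CPM and 299 to 612 CPM, with 1 of 5 tested called and miR-1-3p and miR-208a-3p at no more than 1 count. Treated replicates 1 and 3, at 300 and 299 CPM, lay inside the 2VO range. miR-499-5p of this list had a log2 fold change of -0.44, and its other tested members were positive. miR-1b, not on the list and looked at after the values were seen, was not called. It lay at 158 to 320 CPM without tilianin and at 325, 1969 and 235 CPM in treated replicates 1, 2 and 3. None of the 5 tested endothelial or the 6 neuronal miRNAs was called, and tilianin-treated replicate 2 was the lowest library for both sums. The endothelial sum was 6970 CPM there against at least 10500 CPM elsewhere, and the neuronal sum 84400 CPM against at least 128000 CPM. In that library miR-221-3p of the endothelial list was at 256 CPM against at least 2420 CPM elsewhere, and the neuronal miR-128-3p at 3890 CPM against at least 17600 CPM. miR-139-5p and miR-222-3p of the endothelial list were also lowest there, at 133 and 70.2 CPM. miR-126a-3p at 5560 CPM and miR-126a-5p at 954 CPM lay inside their 2VO ranges (4540 to 7200 and 834 to 1350 CPM). In tilianin-treated replicate 3, where miR-214-3p was at 4.64 CPM, the choroid plexus sum of 123 CPM, mostly miR-204-5p, lay inside the range of the 2VO libraries. In the same library miR-211-5p at 3.30 CPM and miR-204-3p at 0.854 CPM lay above all 2VO libraries (at most 1.78 and 0.617 CPM), as did the Hox sum of 489 CPM (at most 149 CPM). miR-204-3p held few counts, 0 to 26 a library. miR-449a-5p, at 1.10 CPM in that library, lay inside its 2VO range of 0.647 to 2.78 CPM. The part of these tissues in the result of miR-214-3p was not tested.

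**Figure D5:**
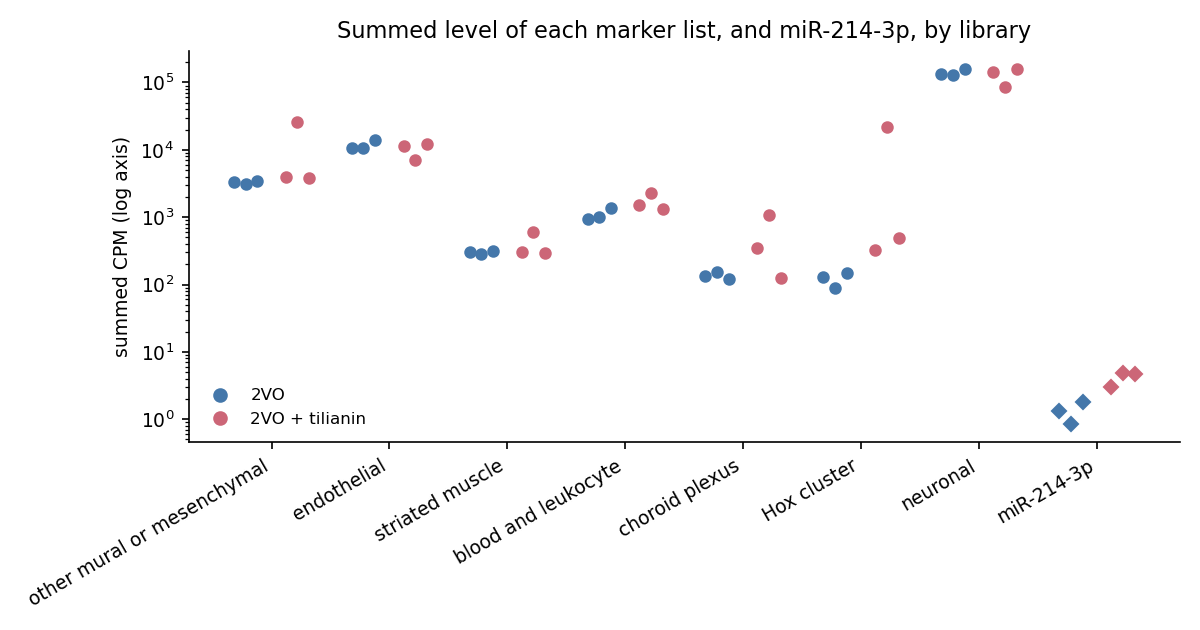
Summed CPM of each marker list (circles) and CPM of miR-214-3p (diamonds) on a log axis, with 1 point per library. Tilianin-treated replicate 2 is the highest library for the mural, muscle, blood, choroid plexus and Hox lists, and the 3 treated libraries of miR-214-3p lie together at 3.04 to 4.77 CPM. The mural and Hox lists are not separate there. Both hold miR-10a-5p (11300 CPM) and miR-10b-5p (10400 CPM), beside sums of 26000 and 21700 CPM.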

How the data were processed

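Small RNA libraries (TruSeq Small RNA kit) of rat brain, 3 of the 2VO and 3 of the tilianin-treated 2VO group, were grouped by the sample titles, and columns were matched by library code (2VO replicate 3 has code 4). The authors deposited read counts per mature miRNA without normalization. The submitters' processing notes name FastQC 0.11.2, Trimmomatic 0.36, cutadapt 1.14 and DESeq2 1.12.4, and the aligner, miRNA reference, build and counter are not given in the sources used here. How reads that match several miRNAs were counted is not given there either, and it bears on any row near 0.

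Counts were tested with edgeR 4.0.16 (R 4.3.3) by its quasi-likelihood test on the 454 miRNAs with at least 10 counts in total, with TMM scaling and Benjamini-Hochberg adjustment. The standard error of a fold change is its size over the square root of F, an approximation. Alternatives used DESeq2 1.42.0 and limma 3.58.1. Exact Clopper-Pearson and Poisson intervals and exact permutation tests used SciPy 1.17.1. Ratios used a pseudocount of 0.5 counts. The code was tested on simulated data. The members, the marker lists and the naming rule (the members, rows sharing their number or counts, the 5 miRNAs most alike and list members) were chosen with earlier results of these data known. Permutation tests of the ratio of miR-199a to miR-214-3p and of the other hairpins' arm shares were planned but not run, since one side was at or near 0.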

Additional observations from a re-analysis of the deposited data

How the results depend on the processing

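The call of miR-214-3p and the lack of a call for miR-143-3p, miR-145-5p and miR-145-3p held in every alternative that gave a value. With the replicate block the log2 fold change of miR-214-3p was 1.67, and the block changed no call of a member; deviations of same-numbered libraries from their group means correlated at -0.121, 0.00917 and 0.297 for replicates 1, 2 and 3, which was not taken as pairing because it was not over 0.1 in every pair. filterByExpr removed both arms of miR-145, and miR-145-5p gave no value without tilianin-treated replicate 2, so these have no values there. Over all tested miRNAs, 21 were called upregulated and 5 downregulated; limma-voom called 6 up and 3 down, the replicate block 9 up, library totals 8 down, the Wald test of DESeq2 3 down and filterByExpr 2 down. With a library left out, 7 to 29 were called up (8, 7 and 9 without 2VO replicates 1, 2 and 3, and 9 without tilianin-treated replicate 2) and 2 to 5 down (2 without 2VO replicate 2). Signs reversed in fits that each left out a library for the log2 fold change of miR-145-3p (-0.12 to 1.15), the difference in the log2 ratio of miR-143-3p to miR-145-5p (-0.23 to 1.32), the difference in the 3p share of miR-145 (-0.51 to 12.2 percentage points), and Pearson's r of miR-143-3p with miR-145-5p (-0.28 to 0.35) and of miR-145-5p with miR-214-3p (-0.38 to 0.62). Without the 2 libraries farthest from the median, r was 0.33 for miR-143-3p with miR-145-5p, -0.37 for the miR-145 arms and -0.63 for miR-145-5p with miR-214-3p. For each of these, the cause was not tested. Counts near 0 limit every statement on miR-145, miR-199a and the opposite arms of miR-143 and miR-214.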
